A study of Mus musculus with 12 samples.

Results

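Trbv1, Trbv2 and Trbv4 are V gene segments at the upstream end of the mouse T cell receptor β (TCRβ) locus, and they were followed through the TCR repertoires of CD8+ T cells from tumors, spleens and tumor-draining lymph nodes (tdLNs). Their members are the listed clonotypes of the TRBC (β) chain whose V region was named V1, V2 or V4 alone. A clonotype is one rearrangement in one library, told from others by its V and J segments and its CDR3 nucleotides, and its abundance is its number of unique molecular identifiers (UMIs, tags that mark single cDNA molecules) with at least 3 reads. Trbv1 had 58803 clonotypes with 103168 UMIs, Trbv2 had 18878 clonotypes with 35341 UMIs, and Trbv4 had 30724 clonotypes with 53366 UMIs, of 968766 TRBC clonotypes in all. A further 160 listings named Trbv2 and 1 named Trbv4 together with other V regions, and these were counted with none of them. By mean share of clonotypes, Trbv1 ranked 6, Trbv4 16 and Trbv2 17 among the 22 TRBV genes with a mean of at least 0.1% of TRBC UMIs.

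The mice were wild type by their labels and carried tumors. They received control IgG, an IL-10-Fc fusion, a CSF-1R-blocking antibody (αCSF1R) or BF10, a fusion of IL-10 to the blocking antibody, and IL-10-Fc and αCSF1R are thus the separate components of BF10. The labels give 30 mg/kg of each agent in 3 doses with a 3-day interval, whereas the methods of the study set the doses by molecular weight. The methods describe the head and neck cancer model as MTCQ1-2 cells in C57BL/6 mice, and the labels give no age. Each of the 12 libraries is the only one of its tissue and treatment (n = 1) and was made from material of 3 mice mixed before sequencing, so the spread between mice cannot be seen and no test between treatments was possible. Cells were selected with CD8 magnetic beads, though the sample titles name CD8 for tumors and spleens and not for tdLNs. No expression markers were measured. The only measure of other T cells is the share of UMIs from TRGC and TRDC (γ and δ) chains. It ran from 0.873% to 8.93% in tumors, 0.677% to 2.30% in spleens and 4.96% to 6.34% in tdLNs. The part of other T cells in the differences between tissues was not tested. TRBC depth ran from 32784 UMIs in the αCSF1R tumor library, which listed only 2493 clonotypes, to 210616 UMIs. Whether fewer cells with a receptor or less of its RNA per cell lowers a share of UMIs cannot be told apart.

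As background, a TCRβ chain is assembled in the thymus when 1 V, 1 D and 1 J segment are cut and joined. At each joint, nucleases remove bases from the segment ends and untemplated bases are added, and this joint encodes most of CDR3, the loop that usually lies over the presented peptide. Most Trbv segments lie in a row that starts with Trbv2, whereas Trbv1 lies apart, upstream of a long stretch with trypsinogen genes. The J segments form a Trbj1 cluster and, downstream of it, a Trbj2 cluster, each behind its own D segment.

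In GRCm38 (mm10), all 3 genes lie on the plus strand of chromosome 6 with 2 exons each: Trbv1 at chr6:40891296-40891885, Trbv2 at chr6:41047556-41047995 and Trbv4 at chr6:41059443-41059886. Trbv1 and Trbv2 are 155.671 kb apart, while 11.448 kb separate Trbv2 from Trbv4. The distances to Trbd1, the first D segment, are 641.316, 485.206 and 473.315 kb. The last 17 exon bases of each gene, from the conserved cysteine codon that opens CDR3 to the recombination signal, are shown because the differences in CDR3 between the genes start from them. They lie at chr6:40891869-40891885, chr6:41047979-41047995 and chr6:41059870-41059886, and capitals mark a codon that is a further cysteine (Trbv1) or an in-frame stop (Trbv4).
Trbv1 germline end: tgcaccTGCagtgcaga
Trbv2 germline end: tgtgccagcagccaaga
Trbv4 germline end: tgtgccagcagcTAAga
The end of Trbv2 is base for base that of Trbv5 (chr6:41062787-41062803), whereas the ends of Trbv1 and Trbv4 are found in no other segment of the 25 with a matched end. Trbv4 is the 1 segment of the 25 whose end holds an in-frame stop codon.

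The recombination signals that follow directly are shown with the heptamer and nonamer, the blocks that the RAG recombinase binds, in capitals, and they lie at chr6:40891886-40891924, chr6:41047996-41048034 and chr6:41059887-41059925.
Trbv1 signal: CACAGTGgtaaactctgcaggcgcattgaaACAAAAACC
Trbv2 signal: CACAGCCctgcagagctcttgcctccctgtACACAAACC
Trbv4 signal: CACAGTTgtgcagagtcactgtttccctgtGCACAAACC
The 3 heptamers differ in their last bases. The heptamer of Trbv1 is shared by 8 of the TRBV segments (itself included) and that of Trbv2 by 6, while that of Trbv4 is found in no other segment. Having a heptamer of its own is not particular to Trbv4, since Trbv14 (CACAGTA) and Trbv17 (CACAGGG) are further cases.

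The germline ends were read back from the clonotypes by counting how many of the 17 bases each CDR3 kept from its start, a count that added bases can raise when they match by chance. Trbv2 clonotypes kept the full end most often of the 3 genes: 53.0% kept all 17 bases, and over the 12 libraries the share was 56.1% ± 6.93 (SD), against 19.0% ± 0.626 of all other TRBC clonotypes. Trbv1 kept its full end in 34.4% ± 3.06 of clonotypes, from 29.7% to 37.7% by library, against 18.7% ± 0.855 of the others. None of the 30724 Trbv4 clonotypes kept it.

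All Trbv4 clonotypes lacked at least 3 germline bases, so that at most 14 of the 17 were kept and the last base of the stop codon, base 15, was never among them. Loss of 3 bases was seen in 12.8% of Trbv4 clonotypes, loss of 4 in 32.0% and loss of 5 in 39.4%. The files list only in-frame CDR3s without a stop codon for the 3 genes, so joints that kept the codon in frame could not appear. On average Trbv4 lacked 4.74 ± 0.0679 bases and carried 11.1 ± 0.316 bases between the V and J ends, against 2.89 ± 0.106 and 10.2 ± 0.3499 in the other clonotypes. Trbv1 lacked 2.02 ± 0.122 bases and Trbv2 1.47 ± 0.433, with 9.85 ± 0.299 and 10.3 ± 1.13 bases between the ends.

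The amino acids at the start of CDR3 differed accordingly. CDR3s of Trbv1 opened with CTC in 99.2% of clonotypes (mean of 12 libraries, lowest 97.3%) and with CTCSA in 77.7%. A cysteine after the first residue was present in 99.6% of Trbv1 clonotypes and in 0.402% of all other TRBC clonotypes. Trbv2 opened with CASSQ in 79.6%, most often followed by aspartate (CASSQD, 35.9%) or glutamate (CASSQE, 22.5%), the residues that the last germline bases can begin. In Trbv4, where the fifth germline codon is the stop, residue 5 was spread over serine (16.0%), proline (15.7%), tyrosine (12.7%) and leucine (12.5%).

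CDR3s of Trbv2 were the longest of the 22 genes on average. Their mean length by library ran from 14.41 to 14.70 residues, and it exceeded that of all other clonotypes of the same library in 12 of 12 libraries, by 0.701 ± 0.0956 residues (exact sign-flip permutation test over libraries, two-sided, adjusted p = 0.000767, from the smallest p the test can give). Trbv1 CDR3s, from 14.17 to 14.50 residues, were longer by 0.489 ± 0.105 in 12 of 12 libraries (adjusted p = 0.000767 by the same exact permutation test). Trbv4 CDR3s, from 13.69 to 13.91 residues, were shorter with a difference of -0.0922 ± 0.0666, in 10 of 12 libraries (adjusted p = 0.00286, same exact permutation test). Of the 22 genes, 31.8% were called longer and 45.5% shorter, so that a call in either direction was common. Weighted by UMIs in place of clonotypes, the Trbv4 difference was -0.0106 residues and no longer called. For all 3 genes, mean CDR3 length was lower in every tdLN library than in every spleen or tumor library, a difference that was not tested. The rest of the repertoire was also shorter in tdLNs than in spleens. TRBC clonotypes other than Trbv1 averaged 13.8297 to 13.8533 residues in tdLNs, 13.8575 to 13.885 in spleens and 13.7845 to 13.9467 in tumors.

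**Figure D1:**
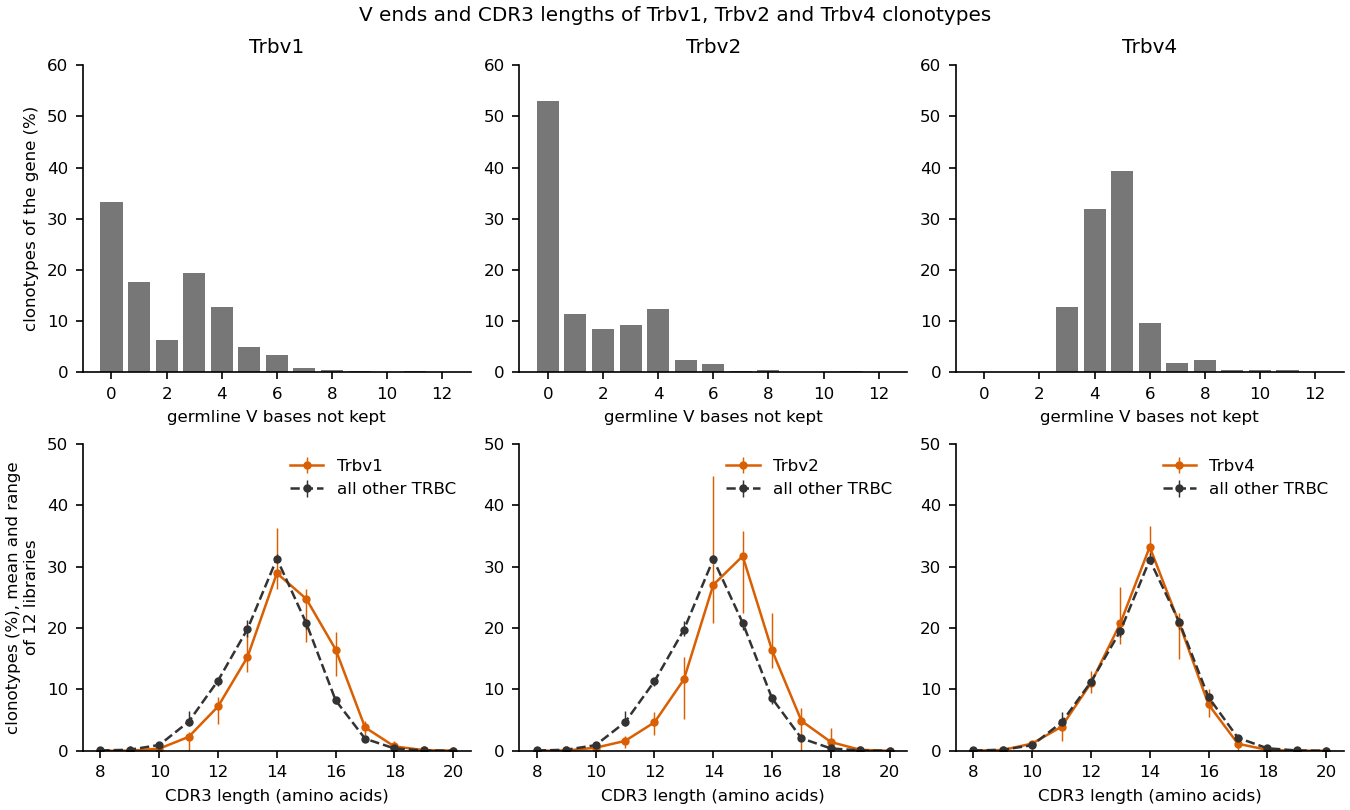
The upper panels plot the share of each gene's clonotypes (%) by the number of germline V bases not kept, pooled over 12 libraries, and the lower panels the share of clonotypes (%) by CDR3 length in amino acids, with points for the mean and bars for the range of 12 libraries (orange, the gene; dashed, all other TRBC clonotypes). Trbv2 peaks at 0 bases lost and Trbv4 has no clonotype with fewer than 3 lost, and the length curves of Trbv1 and Trbv2 lie to the right of the others.

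The partner J segments also differed from those of the rest of the repertoire. Trbv1 was joined to the Trbj2 cluster in 63.3% ± 1.63 of its clonotypes (12 libraries, 60.3% to 66.4%), against 68.9% ± 2.13 of all other TRBC clonotypes. The difference of -5.52 ± 2.39 percentage points had the same sign in 11 of 12 libraries (exact sign-flip permutation test, adjusted p = 0.00215), and only the αCSF1R tumor library, with 113 Trbv1 clonotypes, went the other way. Trbv4 was joined to Trbj2 more often than the rest, in 72.58% ± 2.36 against 68.4% ± 2.05, higher by 4.18 ± 2.32 points and in 12 of 12 libraries (exact permutation test, adjusted p = 0.00153). Trbv2 stood between them at 67.7% ± 3.44 against 68.5% ± 2.02, lower in 9 of 12 libraries (adjusted p = 0.395, exact permutation test). Among the 22 genes, 36.4% were called lower and 27.3% higher. The Trbv1 call rests on counting each clonotype once: weighted by UMIs, the difference was -3.36 points (adjusted p = 0.296, exact permutation test).

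Within the clusters, Trbv1 paired with Trbj1-6 1.65 times as often as the rest (4.395% ± 0.443 of clonotypes against 2.66% ± 0.340) and with Trbj1-5 1.55 times as often. Its pairing with Trbj2-7, the most used J segment, was 0.811 times that of the rest (17.1% ± 1.18 against 21.04% ± 0.876) and the shares did not overlap over the 12 libraries (15.04% to 19.16% against 19.4% to 22.2%). Trbj1-2 was used 0.823 times as often. All 4 pairs passed the exact permutation test over 264 V-J pairs, of which 28.8% were called lower and 29.5% higher. In all, 4 of the 12 J segments were called higher for Trbv1, all in the Trbj1 cluster, and 3 lower, of which 2 were in Trbj2.

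Trbv4 paired with Trbj1-6 1.38 times and with Trbj2-4 1.14 times as often as the rest, and with Trbj2-2 0.669 times (3.39% ± 1.14 against 5.06% ± 0.583, lower in 12 of 12 libraries) and Trbj1-3 0.780 times. The Trbj2-4 call was lost with clonotypes of at least 2 UMIs (adjusted p = 0.111, exact permutation test) and with UMIs of at least 7 reads (0.0887), and the Trbj1-6 call with UMIs in place of clonotypes (0.0859). For this gene 5 J segments were called higher, 4 of them in Trbj2, and 5 lower, 4 of them in Trbj1. Trbv2 paired with Trbj1-5 1.45 times and with Trbj1-6 1.29 times as often as the rest, and with Trbj1-1 0.781 times, all called, and with Trbj1-3 0.882 times, which was not (adjusted p = 0.0801, exact permutation test). Its counts were 3 higher and 2 lower, and they ran from 0 to 5 calls when the libraries of 1 treatment were left out in turn. The Trbj1-6 call of Trbv2 was lost with UMIs in place of clonotypes (adjusted p = 0.596, exact permutation test) and without the control IgG, IL-10-Fc or BF10 libraries (0.156, 0.171 and 0.203). Without the libraries of 1 treatment, its Trbj1-5 call was lost in 3 cases (0.0719 without IL-10-Fc, 0.0569 without αCSF1R and 0.0645 without BF10) and its Trbj1-1 call without BF10 (0.0533).

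**Figure D2:**
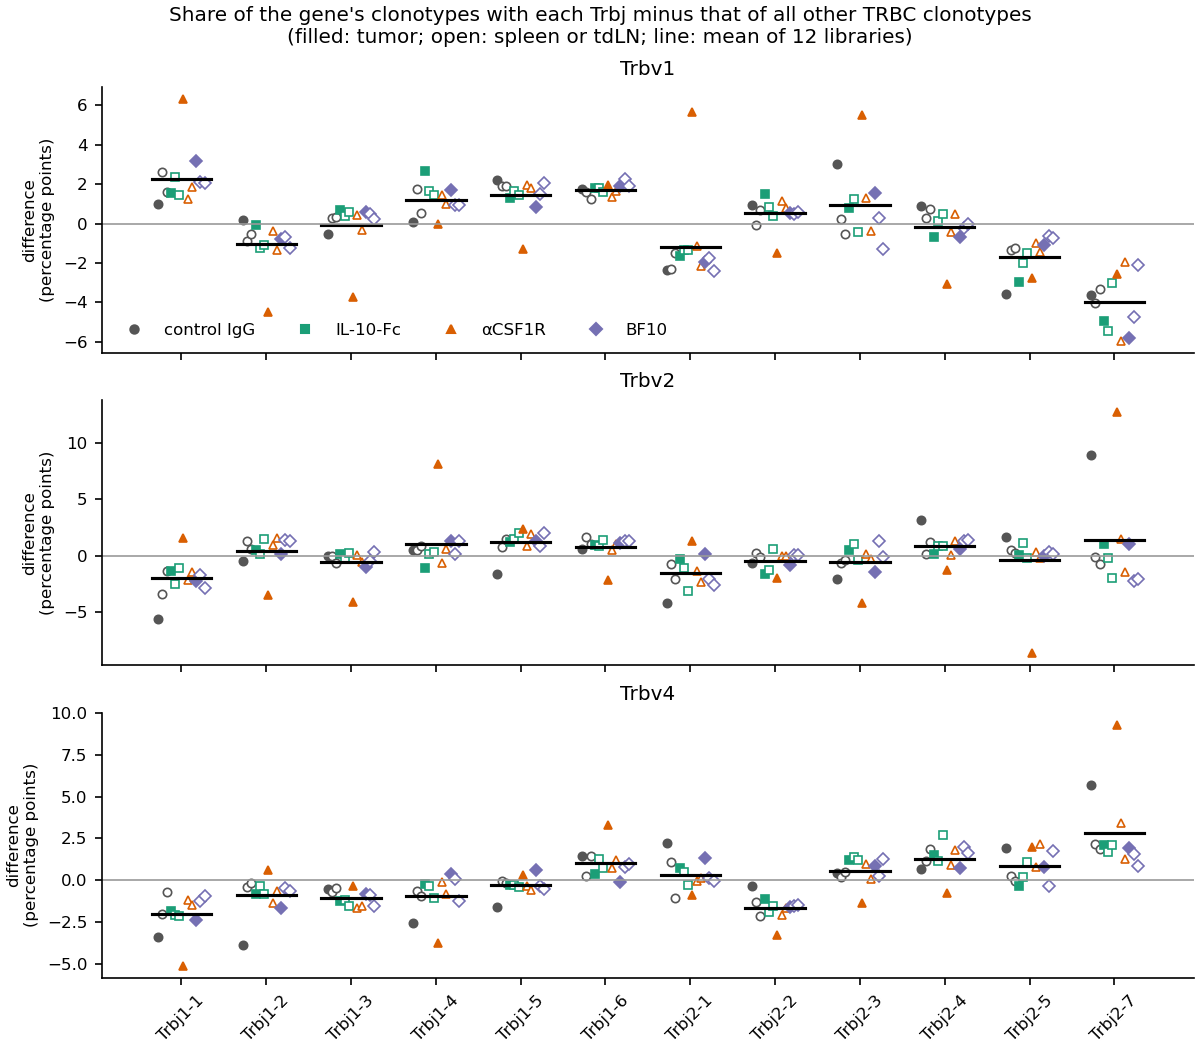
For each Trbj segment (x axis), the share of the gene's clonotypes with it minus that of all other TRBC clonotypes of the same library (percentage points), with a point per library (colour and shape, treatment; filled, tumor; open, spleen or tdLN) and a line for the mean of 12 libraries. For Trbj2-7, Trbv1 lies below 0 and Trbv4 above 0 in all 12 libraries.

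The share of TRBC UMIs asked how much of the β chain RNA in each tissue each gene took. Values of the 4 treatments are given from here on in 1 fixed order: control IgG, then IL-10-Fc, then αCSF1R and last BF10. For Trbv1 the share was 3.12%, 5.12%, 2.19% and 4.97% in tumors. In spleens it was 6.12%, 5.46%, 6.15% and 6.09%, and in tdLNs 6.88%, 6.91%, 6.22% and 5.99%. The tumor was the lowest tissue in 4 of 4 treatments, and the tissue means were 3.85% ± 1.43 (SD of 4 treatments) in tumors, 5.96% ± 0.334 in spleens and 6.50% ± 0.464 in tdLNs. The tissue difference did not pass the exact test that permutes tissues within treatments (adjusted p = 0.0509), with 22.7% of the 22 genes called. By the same exact permutation test it was called (adjusted p = 0.0340) without the largest clonotype of each TRBV gene, with clonotypes of at least 2 UMIs and with UMIs of at least 7 reads.

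For Trbv4, the share of UMIs in tumors was 1.16%, 2.72%, 0.888% and 2.83%. In spleens it was 2.98%, 2.99%, 2.69% and 3.498%, and in tdLNs 3.16%, 3.33%, 3.39% and 3.51%. The tumor was again the lowest and the tdLN the highest tissue in 4 of 4 treatments (means 1.90% ± 1.02, 3.04% ± 0.336 and 3.35% ± 0.148). However, the spleen and tdLN intervals overlapped in mice given control IgG and in those given BF10. The tissue difference was called (exact permutation test, adjusted p = 0.0407). With any 1 treatment left out, and with ranks in place of shares, it was not called (0.153 to 0.204 and 0.0509, adjusted p of the exact permutation test). With 3 treatments left, the raw p cannot go below 0.0278.

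Trbv2 differed from both. In tumors it took 2.25%, 1.46%, 6.84% and 1.249% of TRBC UMIs, in spleens 1.37%, 1.27%, 1.54% and 1.63%, and in tdLNs 2.60%, 2.53%, 2.50% and 2.18%. The tdLN was above the spleen in 4 of 4 treatments, whereas the tumor values lay on either side of both, and the tissue difference was not called (exact permutation test, adjusted p = 0.499). The 6.84% of the αCSF1R tumor (95% interval 6.58% to 7.12%) was 5.48 times the 1.249% of the BF10 tumor (1.198% to 1.30%). These Wilson intervals cover counting error of 1 library each, and the spread between mice is unknown.

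Counting each clonotype once narrowed these differences. The share of clonotypes of Trbv1 in tumors was 5.30%, 5.64%, 4.53% and 5.28%, with tissue means of 5.19% ± 0.468, 6.12% ± 0.234 and 6.36% ± 0.391 in tumors, spleens and tdLNs (exact permutation test, adjusted p = 0.0509). That of Trbv4 was 2.81%, 2.88%, 2.41% and 2.94% in tumors, with tissue means of 2.76% ± 0.242, 3.10% ± 0.240 and 3.27% ± 0.129. Trbv4 was called here too (exact permutation test, adjusted p = 0.0291, with 31.8% of the 22 genes called). Trbv2 had 1.997%, 1.35%, 3.05% and 1.33% in tumors, 1.31% to 1.78% in spleens and 2.27% to 2.55% in tdLNs (adjusted p = 0.143, same exact permutation test). The αCSF1R tumor values rest on 113, 76 and 60 clonotypes of Trbv1, Trbv2 and Trbv4.

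**Figure D3:**
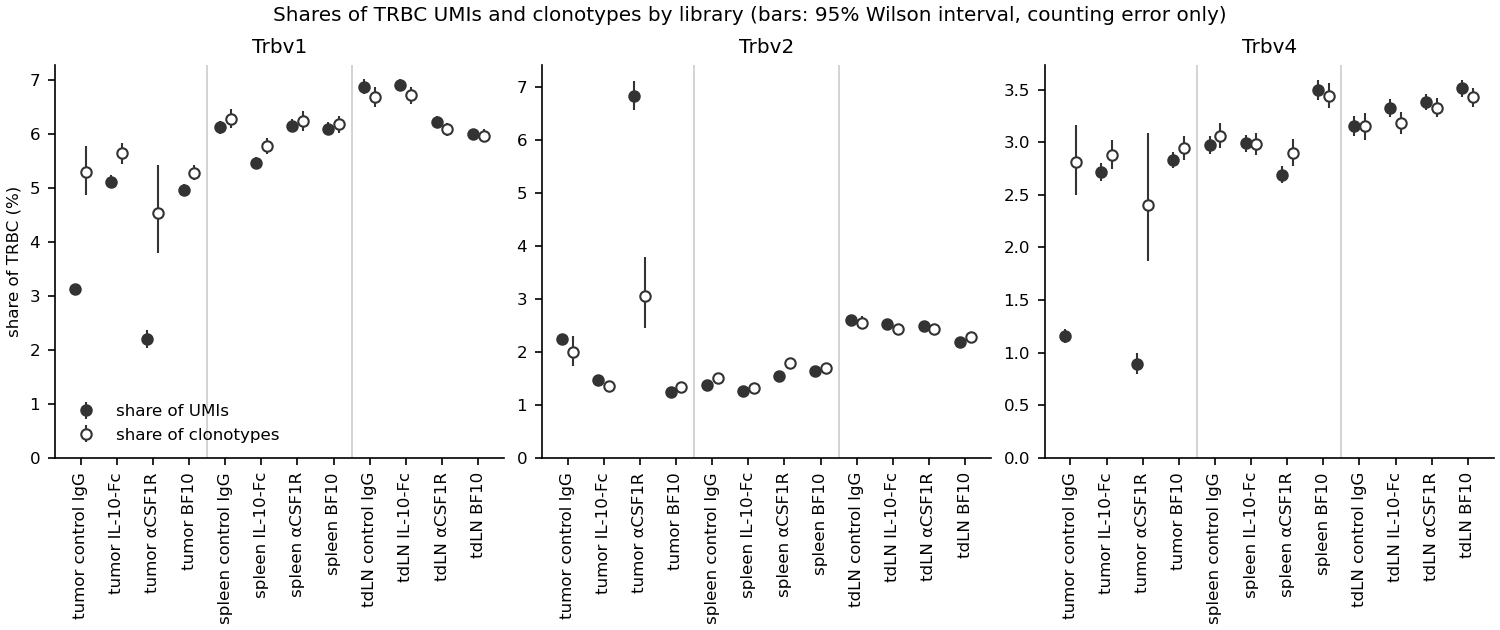
Share of TRBC UMIs and share of TRBC clonotypes (%) of each gene in the 12 libraries, with 95% Wilson intervals that cover counting error only. Trbv1 and Trbv4 lie lowest in the control IgG and αCSF1R tumors by UMIs, and Trbv2 stands highest in the αCSF1R tumor at 6.84%.

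Across the 12 libraries, the TRBV genes whose share of clonotypes moved most like that of Trbv1 were Trbv4 (Pearson r = 0.727) and Trbv3 (0.722). For Trbv2 they were Trbv5 (0.922), whose germline end it shares, and Trbv20 (0.823). For Trbv4 they were Trbv13-1 (0.944) and Trbv1 (0.727). These correlations are descriptions over 12 libraries that fall into 3 tissues and share depth and mice.

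UMIs per clonotype tied both measures together. Trbv1 had 6.46 and 6.36 UMIs per clonotype in the control IgG and αCSF1R tumors, 0.575 and 0.472 times that of all other TRBC clonotypes there, and 0.902 to 1.03 times in the other 10 libraries. Trbv4 had 4.53 and 4.85 in those tumors, 0.405 and 0.363 times that of the others, and 0.925 to 1.05 times elsewhere. Trbv2 went the other way, with 12.4 and 29.5 UMIs per clonotype, 1.13 and 2.34 times that of the others. Over 12 libraries none of the 3 genes was called (log2 ratios -0.18, 0.09 and -0.24 for Trbv1, Trbv2 and Trbv4, adjusted p = 0.0958, 0.854 and 0.197, exact sign-flip permutation test), with 31.8% of the 22 genes called lower and 13.6% higher. The values of Trbv1 and Trbv4 that stood apart came from the libraries with the fewest clonotypes, 9466 and 2493, and the part of depth or of γδ chains (4.27% and 8.93% of UMIs there) in them was not tested.

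The largest clonotypes show which receptors lay behind the shares. In their CDR3 sequences below, lower case marks the bases matched to the V and J ends and capitals the bases between them. Trbv1 had 3 listings with at least 0.1% of the TRBC UMIs of a library. The control IgG tumor held a clonotype with Trbj2-3 and CDR3 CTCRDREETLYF at 534 UMIs, 0.513% of TRBC UMIs (95% interval 0.472% to 0.559%) and 16.5% of the Trbv1 UMIs, and it was listed in 0 other libraries. A count of 0 allows up to 3 UMIs, which are 0.00142% to 0.00915% of TRBC UMIs by library. The other listings were the same clonotype with Trbj2-1 in mice given αCSF1R, with 600 UMIs in the spleen (0.388%), 120 in the tumor (0.366%) and 15 in the tdLN, and in 0 libraries of the other treatments.
Trbv1, control IgG tumor: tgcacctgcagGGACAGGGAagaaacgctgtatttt
Trbv1, αCSF1R spleen, tumor and tdLN: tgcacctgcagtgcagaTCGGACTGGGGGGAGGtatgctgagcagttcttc
Both carry the second cysteine codon (tgc) that the germline end of Trbv1 gives. In the BF10 and IL-10-Fc tumors the largest Trbv1 clonotypes had 22 and 65 UMIs.

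Trbv2 held more large clonotypes than Trbv1 or Trbv4 did. How many the other TRBV genes held is not given here, so whether this is particular to Trbv2 cannot be told. By mean log2 ratio of UMIs per clonotype, Trbv2 ranked 5 among the 22 genes. In the αCSF1R tumor, 6 clonotypes of at least 0.1% of TRBC UMIs made up 87.9% of the 2244 Trbv2 UMIs, and in the control IgG tumor 4 such clonotypes made up 63.7% of 2340. The IL-10-Fc tumor had 1, with 16.3% of its Trbv2 UMIs, and the BF10 tumor, the spleens and the tdLNs had none. The largest of each library outside these tumors had between 7 UMIs (control IgG spleen) and 128 UMIs (IL-10-Fc tdLN).
Trbv2, αCSF1R tumor, 850 UMIs: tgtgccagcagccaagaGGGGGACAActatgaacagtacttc
Trbv2, αCSF1R tumor, 288 UMIs: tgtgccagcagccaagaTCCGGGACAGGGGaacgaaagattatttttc
Trbv2, αCSF1R tumor, 277 UMIs: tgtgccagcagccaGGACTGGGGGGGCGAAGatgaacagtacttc
Trbv2, αCSF1R tumor, 219 UMIs: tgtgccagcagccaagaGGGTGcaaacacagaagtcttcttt
Trbv2, control IgG tumor, 676 UMIs: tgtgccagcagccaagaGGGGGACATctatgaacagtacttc
Trbv2, control IgG tumor, 382 UMIs: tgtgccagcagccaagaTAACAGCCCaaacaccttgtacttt
Trbv2, control IgG tumor, 268 UMIs: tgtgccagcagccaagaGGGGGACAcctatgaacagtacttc
Trbv2, control IgG tumor, 164 UMIs: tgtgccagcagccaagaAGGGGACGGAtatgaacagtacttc
Trbv2, IL-10-Fc tumor, 310 UMIs: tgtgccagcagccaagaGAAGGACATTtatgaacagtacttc
Of these 9, all but the clonotype of 277 UMIs kept the full germline end. The 2 remaining clonotypes of this size in the αCSF1R tumor had 204 and 135 UMIs, and both kept 13 of the 17 bases. Of all Trbv2 clonotypes in that tumor, 53.9% kept the full end. The clonotype of 850 UMIs alone was 2.59% of TRBC UMIs (2.43% to 2.77%), and without it the Trbv2 share in that tumor was 4.37%.

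Trbv4 had 1 clonotype of this size, in the control IgG tumor, with Trbj2-1, 143 UMIs, 0.137% of TRBC UMIs (0.117% to 0.162%) and 11.9% of the Trbv4 UMIs.
Trbv4, control IgG tumor: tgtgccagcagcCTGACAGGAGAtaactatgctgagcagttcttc
The largest in the IL-10-Fc tumor had 86 UMIs and a further 37 in the tdLN of the same treatment, and the largest in the αCSF1R tumor had 23. The largest in the BF10 tumor, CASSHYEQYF, had 14 UMIs and was also listed in 6 other libraries with 1 to 11 UMIs. The 3 largest clonotypes together held 14.8%, 3.65%, 18.6% and 0.705% of Trbv4 UMIs in the tumors. For Trbv2 the same shares were 56.7%, 19.5%, 63.1% and 4.03%, and for Trbv1 20.9%, 2.33%, 22.3% and 0.690%. The order was the same for the 3 genes, with αCSF1R highest and BF10 lowest. The genes were read from the same tumor libraries, 1 per treatment, so they are not replicates. Trbv1, Trbv2 and Trbv4 listed 113, 76 and 60 clonotypes in the αCSF1R tumor, against 4770, 1202 and 2658 in the BF10 tumor. The part of these numbers in the order was not tested.

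**Figure D4:**
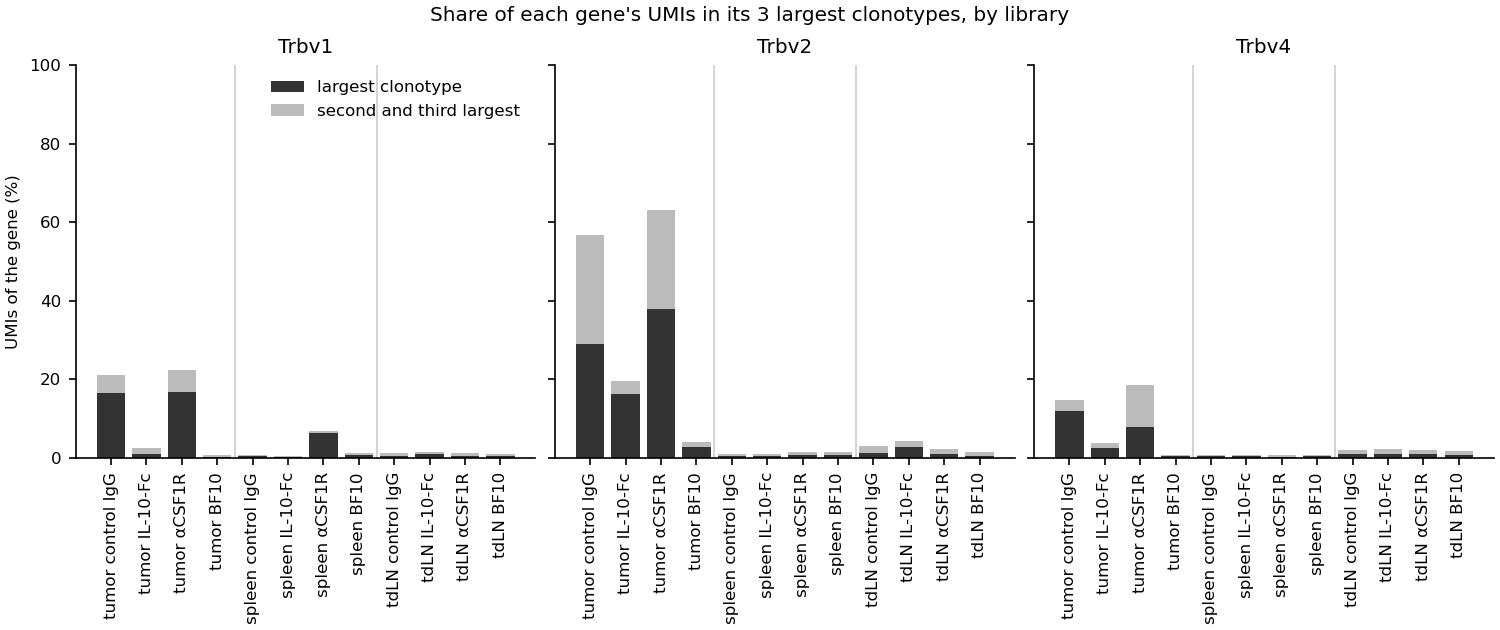
Share of each gene's UMIs (%) held by its largest clonotype (dark) and by the next 2 (light) in the 12 libraries. The control IgG and αCSF1R tumors stand highest for all 3 genes, and the bars of Trbv2 there reach 56.7% and 63.1%.

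The largest Trbv2 clonotypes of 3 tumors resembled each other. Those of the control IgG (676 UMIs), IL-10-Fc (310) and αCSF1R (850) tumors, and the control IgG clonotypes of 268 and 164 UMIs, all joined Trbj2-7 and encoded CDR3s of 14 residues that differ at residues 7 and 9 only: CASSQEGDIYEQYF, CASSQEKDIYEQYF, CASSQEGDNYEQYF, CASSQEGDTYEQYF and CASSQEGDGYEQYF. Most of the residues in common are germline: the end of Trbv2 encodes CASSQ, and that of Trbj2-7 encodes YEQYF. The glutamate before residue 7 starts from the last V bases, and 22.5% of Trbv2 clonotypes opened with CASSQE (mean of 12 libraries). Only the aspartate between residues 7 and 9 lies outside these V and J ends. The D segments Trbd1 (gggacagggggc) and Trbd2 (gggactgggggggc) both hold gggac, in which gac encodes aspartate. The part of the D segments in this residue and in the glycine of residue 7 was not tested. The group of all Trbv2 and Trbj2-7 clonotypes with the 12 residues other than 7 and 9 in common was chosen after these values were seen, so it is described with no test. It held 49.2% of Trbv2 UMIs in the control IgG tumor (1151 UMIs in 16 clonotypes), 18.7% in the IL-10-Fc tumor (357 in 11), 37.9% in the αCSF1R tumor (851 in 2) and 0.823% in the BF10 tumor (18 in 3). In the 4 spleens it held 0.0948% to 0.189% (2 to 4 UMIs), and in the 4 tdLNs 0.0214% to 0.157% (1 to 7 UMIs). The pattern was set by clonotypes of the control IgG, IL-10-Fc and αCSF1R tumors, which stand high by that choice. In the αCSF1R tumor, 1 such clonotype held 850 of the 851 UMIs. That these 3 tumors lie above the BF10 tumor is thus no result. The BF10 tumor, which did not set the pattern, lay above all spleens and tdLNs with its 18 UMIs. These came from 3 clonotypes, 1 of which held 10 UMIs, so this too is description only. Among Trbv2 clonotypes of at least 2 UMIs, the group made up 0.509% in the BF10 tumor and 0.462% in the BF10 tdLN.

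Residue 7 of the group was glycine in 15 of the 16 clonotypes of the control IgG tumor, in 5 of 11 of the IL-10-Fc tumor (38 of 357 UMIs), in 2 of 2 of the αCSF1R tumor and in 2 of 3 of the BF10 tumor. In the tdLNs, in the same order, it was glycine in 2 of 2, 0 of 1, 2 of 2 and 3 of 4 clonotypes. In the 4 spleens, which held 1 or 2 clonotypes each, it was glycine in 0, which allows up to 0.182% of Trbv2 UMIs there (Wilson upper limit). The clonotype of 268 UMIs of the control IgG tumor was also listed in the IL-10-Fc tumor with 5 UMIs, and that of 164 UMIs in the control IgG tdLN with 2. The clonotypes of 850 and 310 UMIs had 1 UMI each in the tdLN of their own treatment. The residues of the 850-UMI clonotype recurred in the BF10 tumor with other bases, at 10 UMIs.
Trbv2, BF10 tumor, 10 UMIs: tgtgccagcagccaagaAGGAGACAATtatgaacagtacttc
Small listings lay close to large ones: 10 of the 16 clonotypes in the control IgG tumor had at most 2 UMIs and lay 1 base from one with at least 10, as did 3 of 11 in the IL-10-Fc tumor and 1 of 2 in the αCSF1R tumor. They held 12, 4 and 1 UMIs, and without them 6, 8 and 1 clonotypes were left. Whether they are sequencing errors was not tested. With another V gene, this pattern was listed for Trbv5 only, in 14 clonotypes with 23 UMIs over the 3 tissues. Trbv5 is the segment with the same germline end as Trbv2, so the listing says little about how particular the pattern is to Trbv2.

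**Figure D5:**
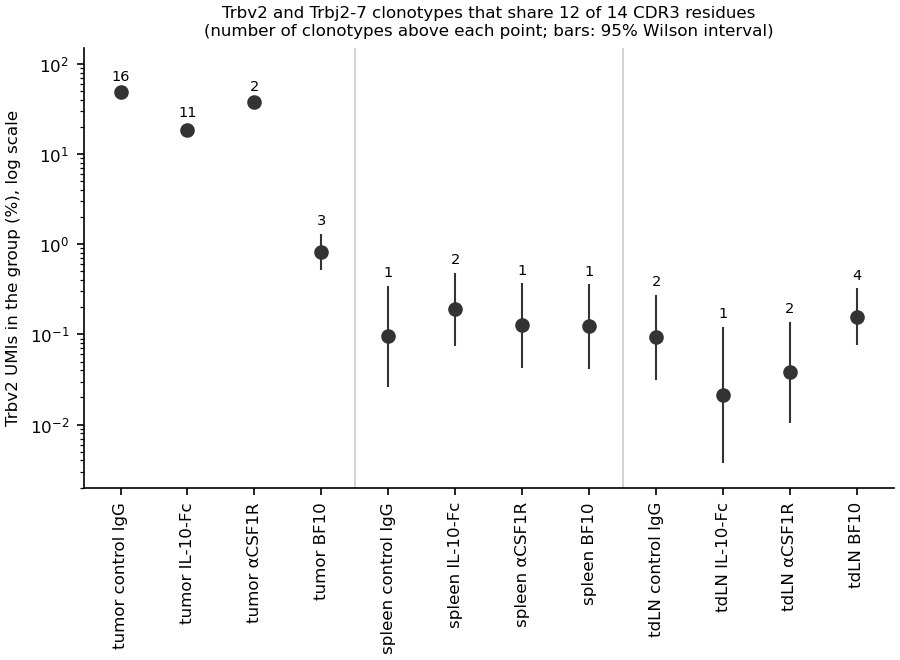
Share of Trbv2 UMIs (%, log scale) in Trbv2 and Trbj2-7 clonotypes that share 12 of 14 CDR3 residues, by library, with 95% Wilson intervals (counting error only) and the number of clonotypes above each point. The control IgG, IL-10-Fc and αCSF1R tumors, whose large clonotypes set the pattern, lie between 18.7% and 49.2%. The BF10 tumor lies at 0.823%, and all spleens and tdLNs at 0.189% or below.

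Clonotypes of a tumor were looked up in the tdLN and spleen libraries by V, J and CDR3 nucleotide sequence. In mice given αCSF1R, 14 of the 76 tumor clonotypes of Trbv2 were listed in the tdLN of the same treatment (18.4%, 95% interval 11.3% to 28.6%), and they held 82.4% of the Trbv2 UMIs of that tumor. This share rests on tdLN listings of few UMIs. The tumor clonotypes of 850, 288, 277, 219 and 135 UMIs had 1, 3, 9, 5 and 2 UMIs in that tdLN. In the tdLNs of the other treatments 0% to 3.95% of the 76 tumor clonotypes were listed. In the other treatments, 4.76% (control IgG, 9 of 189), 3.51% (IL-10-Fc, 26 of 741) and 2.91% (BF10, 35 of 1202) of the Trbv2 tumor clonotypes were listed in the tdLN of the same treatment, against ranges of 2.65% to 4.23%, 1.75% to 2.83% and 1.66% to 2.995% in the tdLNs of other treatments. The IL-10-Fc clonotypes so shared held 21.7% of the Trbv2 UMIs of the tumor. Most of this was the clonotype of 310 UMIs (16.3%), which had 1 UMI in the tdLN. For Trbv1 the share in the tdLN of the same treatment was 6.37% with control IgG, 5.28% with IL-10-Fc, 11.5% with αCSF1R and 6.16% with BF10, inside the range of the other treatments' tdLNs for control IgG, IL-10-Fc and BF10 and above it (2.65% to 9.73%) for αCSF1R. For Trbv4 it was 3.01%, 4.12%, 8.33% and 5.30%, below the range of the other treatments' tdLNs for control IgG (4.89% to 5.64%), inside it for IL-10-Fc (2.66% to 5.32%) and above it for αCSF1R (3.33% to 6.67%) and BF10 (2.37% to 4.74%). Of the Trbv4 clonotypes of the control IgG tumor, 7.14% (19 of 266) were listed in the spleen of the same treatment, against 2.26% to 2.63% in the other spleens. The share in the spleen of the same treatment was, in the same order of treatments, 7.14%, 3.295%, 6.67% and 3.27% for Trbv4. It was 6.97%, 5.53%, 7.96% and 4.21% for Trbv1, and 1.06%, 1.62%, 6.58% and 1.33% for Trbv2. These lay above the range of the other treatments' spleens for control IgG and BF10 in Trbv4, for control IgG and IL-10-Fc in Trbv1, and for IL-10-Fc and αCSF1R in Trbv2, and otherwise within it. None of these differences was tested. Over the processing alternatives, 33 values of shared clonotypes moved and 15 stayed the same. A larger tdLN library can list more of a tumor's clonotypes, and the tdLN libraries listed from 71579 to 151480 TRBC clonotypes.

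Some CDR3 amino acid sequences recurred across most libraries. Of Trbv1 CDR3s, 2 were listed in 12 of 12 libraries. Both have 14 residues and Trbj1-1 and differ only in residue 8, which is alanine in the first (281 UMIs, 25 nucleotide sequences) and glycine in the second (241 UMIs, 27 nucleotide sequences). They had 6.33 and 7.40 bases on average between the V and J ends, fewer than the 9.85 of all Trbv1 clonotypes. The first was the largest Trbv1 clonotype of the BF10 tumor, in this form.
Trbv1, BF10 tumor, 22 UMIs: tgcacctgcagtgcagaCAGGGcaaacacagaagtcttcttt
No Trbv2 or Trbv4 CDR3 was listed in 12 libraries. Such a listing needs the αCSF1R tumor library, which held 76 Trbv2 and 60 Trbv4 clonotypes against 113 of Trbv1. The part of clonotype numbers in this contrast was not tested. For Trbv2 the most widespread, with Trbj2-4, was listed in 11 libraries with 84 UMIs and 18 nucleotide sequences, and for Trbv4 it was a CDR3 of 14 residues with Trbj2-7, in 11 libraries with 69 UMIs and 13 nucleotide sequences. In all, 18 of 39492 Trbv1, 1 of 15371 Trbv2 and 1 of 23506 Trbv4 CDR3s were listed in at least 11 libraries.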

How the data were processed

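CD8+ T cell RNA of tumors, spleens and tdLNs, with 1 library for each of 3 tissues and 4 treatments, was used by the authors for TCR libraries (QIAseq kit, 100 ng of RNA per the methods). Reads were grouped by UMI and assigned to V and J regions by the authors in the kit maker's portal. The deposited counts are UMIs per clonotype with at least 3 reads, and with higher minimums up to 7 reads, without normalization. The labels name mm10, and the germline set behind the V names is not given in the sources used here. Files matched the labels through their read set names, and 0 columns of other samples were present. The deposited fraction per clonotype was not used.

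The members and lists were chosen with earlier results of these data known. Rows with chain TRBC and V1, V2 or V4 alone were taken, and 303 TRBC rows with several V regions were left out of all genes. Germline ends and positions were read from the GRCm38 genome and its gene annotation. A base counted as kept where the CDR3 matched the germline end without a break from its start (V) or from its end (J).

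Tissues were compared by exact permutation of tissue labels within treatments (1296 arrangements, smallest p 0.00463), and a gene with all other TRBC clonotypes of the same libraries by an exact sign-flip test over 12 libraries (4096 patterns, smallest p 0.000488), two-sided. P-values were adjusted by Benjamini-Hochberg over the 22 TRBV genes with a mean of at least 0.1% of TRBC UMIs (28 were listed alone), or over 264 pairs with the 12 Trbj segments of at least 0.5% of clonotypes, at a threshold of 0.05. Libraries of one treatment share mice, so these p-values measure only the spread between libraries. Intervals are 95% Wilson intervals of counting error. Trbj segments named are the 2 with the highest and the 2 with the lowest ratio for each gene, and clonotypes named are the largest of a library, those of at least 0.1% of TRBC UMIs and the CDR3s in the most libraries. Alternatives were other minimums of reads or UMIs, UMIs in place of clonotypes, ranks, log2 shares, equal UMI totals for the share of clonotypes, other handling of rows with several V regions, removal of the largest clonotypes, amino acid in place of nucleotide sequences, and leaving out libraries.

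The steps were tested on simulated data with known shifts, in which the tissue test missed most shifts confined to one tissue after adjustment, so an uncalled tissue difference says little. Computation used scipy 1.17.1 with pandas 2.3.3 and numpy 2.4.6 under Python 3.11.15, and figures were drawn with matplotlib 3.10.9.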

Additional observations from a re-analysis of the deposited data

Results flagged for a closer look

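In 45 groups of 4 libraries of one tissue, the highest or lowest value was compared with the spread of the other 3, and 3 stood apart by Dixon's criterion. Chance flags about 1 in 20 groups, and the 4 libraries of a tissue are different treatments, not replicates. The share of TRBC UMIs of Trbv1 in the IL-10-Fc spleen was 5.46%, against 6.09% to 6.15% in the other spleens. The Trbj2 share of Trbv4 clonotypes in the IL-10-Fc tdLN was 74.7%, against 69.6% to 70.2% in the other tdLNs. UMIs per clonotype of Trbv2 in the αCSF1R tumor were 2.34 times those of all other TRBC clonotypes, against 0.937 to 1.13 times in the other tumors.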

How the results depend on the processing

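Tissues were compared within treatments and genes within libraries. Between treatments, no paired analysis was possible because each tissue and treatment has 1 library. The Trbv4 tissue difference in share of UMIs (tdLN minus tumor) was no longer called with UMIs of at least 7 reads (1.53 points), with ranks (2 ranks) or with 1 treatment left out (1.10 to 1.73 points), nor was that in share of clonotypes with ranks (1.75 ranks) or 1 treatment left out (0.377 to 0.584 points). The Trbv1 tissue difference became called in share of UMIs with at least 7 reads (2.74 points), at least 2 UMIs (2.94) and without the largest clonotypes (2.41), and in share of clonotypes with at least 2 UMIs (1.34), on the log2 scale (0.30) and at equal UMI totals (1.33). That of Trbv2 in share of clonotypes became called with at least 2 UMIs (0.954 points). With 1 treatment left out, Trbv1 ran from 2.19 to 3.19 and from 1.04 to 1.33 points and Trbv2 from 0.231 to 2.13 and from 0.763 to 0.942, none called. The smallest raw p of the tissue test is then 0.0278, which leaves little room for a call after adjustment, so these lost calls say little.

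The Trbj2 difference of Trbv2 was called with at least 7 reads (-2.09 points) and without the tumor libraries (-1.73), was called in some cases with 1 treatment left out (-1.56 to -0.51), and reversed with UMIs in place of clonotypes (2.37, not called). With UMIs in place of clonotypes, the Trbj2 difference of Trbv1 (-3.36 points) and the CDR3 length difference of Trbv4 (-0.0106 residues) were not called, and 6 Trbj segments were called for Trbv4 in place of 10. With 1 treatment left out, 0 to 5 Trbj segments were called for Trbv2 and 6 to 9 for Trbv4. The log2 ratio of UMIs per clonotype of Trbv4 was called with at least 7 reads (-0.25) and reversed without the tumor libraries (0.000348). That of Trbv2 reversed without the tumor libraries (-0.0496), without the αCSF1R tumor library alone (-0.0181, added after the data were seen) and in some cases with 1 treatment left out (-0.00228 to 0.14), none called. The causes were not tested.

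Of the 22 TRBV genes, the tissue difference in share of UMIs was called for 5, and for 3 with at least 7 reads or at least 2 UMIs and 0 with ranks or 1 treatment left out (6 had an unadjusted p under 0.05). For the share of clonotypes it was called for 7, and for 13 with at least 2 UMIs, 3 with ranks and 0 with 1 treatment left out. The counts of 0 with 1 treatment left out were close to fixed by the smallest p of that test. The Trbj2 difference was called for 14 genes, and for 7 with UMIs in place of clonotypes. Depth limits the tumors most: the αCSF1R tumor library had 32784 TRBC UMIs, where 3 UMIs are 0.00915%.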
